A study of Mus musculus with 5 samples.

Results

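The genes described here are 47 core spliceosome components, chosen by symbol from the 19726 genes that each library lists. They comprise 7 Sm proteins, 7 LSm proteins, 3 proteins of the U1 particle, 13 of the U2 particle and its loading factor U2AF, 7 of the tri-snRNP, 5 helicases, and 5 of the Prp19 complex and second step. The U5 helicase gene Snrnp200 and the U5-associated Ddx23 were counted among the helicases. All 47 had a value in every library, and all 47 passed the filter of a mean of at least 1 TPM, as did 12979 genes in all.

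The libraries were made from CD4+ T cells of MC38 tumors (n = 2, replicates 2 and 3) and of spleen (n = 3, replicates 1, 2 and 3). All mice were wild-type C57/Bl6j aged 7 weeks, and the MC38 line derives from a mouse colon carcinoma. RNA of 300000 cells was used per extraction, and the libraries were stranded and depleted of ribosomal RNA. The labels do not say whether replicates came from separate mice or how the CD4+ cells were isolated. The p-values thus measure only a spread between these libraries, which the fit pools largely over genes.

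The spliceosome removes introns from pre-mRNA. Its small nuclear ribonucleoproteins (snRNPs) each carry a small nuclear RNA: U1 reads the 5′ splice site, U2 reads the branch point, and the tri-snRNP of U4, U6 and U5 joins before activation. Sm proteins form a ring on U1, U2, U4 and U5 RNA, and the LSm proteins form a like ring on U6. ATP-driven helicases remodel the complex at each step, and the Prp19 complex holds the active form together. T cells change the splicing of many transcripts on activation, Ptprc (CD45) being the best known.

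TPM is a relative abundance corrected for transcript length, and the listed values summed to 569309 to 596116 TPM in tumor and 268987 to 359532 TPM in spleen libraries. This difference in listed total makes the scaling of the libraries decisive for a group of genes with small changes. The median TPM of the 12979 tested genes was 9.19 and 10.2 in tumor replicates 2 and 3, and 6.34, 7.35 and 6.54 in spleen replicates 1, 2 and 3. The tumor libraries also differed in cell type markers. All 16 macrophage and monocyte markers rose, with a summed level of 5213 and 5661 TPM in tumor and 32.7 to 41.6 TPM in spleen, and none was at 0 in any library. All 13 listed T cell markers fell, with a summed level of 259 to 333 TPM in tumor and 1028 to 1364 TPM in spleen, and none was at 0. Macrophage markers thus exceeded T cell markers in sum in both libraries labelled as tumor CD4+ T cells, and not in the spleen libraries. Of 10 proliferation genes 6 rose and 1 fell, with a summed level of 251 to 307 TPM in tumor and 136 to 151 TPM in spleen. Neutrophil markers summed to 79.4 and 80.7 TPM in tumor and 16.2 to 21.7 TPM in spleen, and 3 of 5 tested rose and 1 fell. NK and CD8 markers summed to 7.43 and 7.62 TPM in tumor and 14.2 to 17.4 TPM in spleen, and 3 of 4 tested fell. B cell markers (1 rise and 1 fall among 4 tested) and dendritic cell markers (1 rise among 4 tested) summed to at most 14.9 TPM in any library. The 7 epithelial and carcinoma markers summed to 1.93 to 2.47 TPM in tumor and 2.52 to 3.34 TPM in spleen. The part of other cells in the differences below was not tested, and in bulk samples fewer cells of a type and less RNA per cell cannot be told apart.

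In the deposited TPM the core spliceosome showed rises in tumor and no falls. Of the 47 genes 17 rose, none fell and 30 were not called by limma at an adjusted p below 0.05. Across all tested genes 40.9% rose and 18.1% fell, so the 36.2% of members that rose is near the background, and the count of falls stands below it. The median log2 change of the members was 0.35, beside 0.23 for all tested genes, and their range was -0.41 to 1.53. That order depends on the low genes, since 46 members averaged at least 5 TPM. Among the 8535 genes at that level the median was 0.49, above the 0.34 of the members, and 51.4% rose and 17.1% fell. The 36.2% of members that rose lies below that share of rises. In 26 members both tumor libraries lay above all 3 spleen libraries and in 2 below, against 46.6% and 23.8% of tested genes. Without spleen replicate 2, which held the highest of the 3 spleen values for 42 of the 47 genes, 27 members rose and 1 fell, beside 45.0% and 20.2% of tested genes. Spleen replicate 2 also had the highest median gene of the 3, and relative to the median gene it was highest for 25 of the 47.

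**Figure D1:**
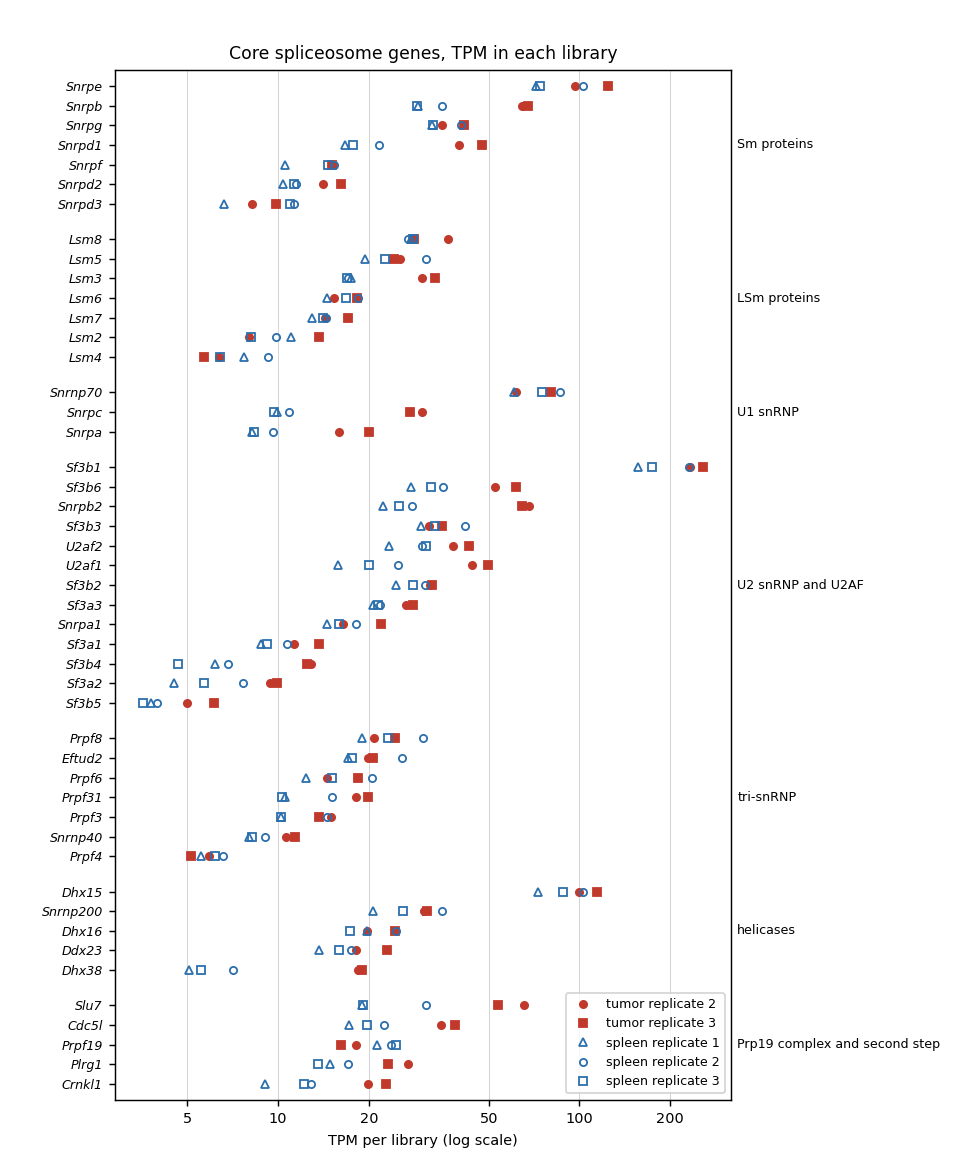
TPM of each of the 47 genes in each library, on a log axis, grouped by complex and ordered by mean level. Filled red symbols are tumor replicates 2 and 3, open blue symbols spleen replicates 1, 2 and 3. Sf3b1 lies highest, at 156 to 257 TPM, and the tumor symbols of Dhx38, Snrpc, Snrpb2 and Slu7 lie clear of the spleen symbols.

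Set against each library's median gene, the members split in both directions. After scaling to an equal median gene, 12 rose, 14 fell and 21 were not called, beside 29.4% of tested genes that rose and 37.6% that fell. The members' median log2 change was then -0.13, and that of all tested genes -0.21. Both tumor libraries lay above all spleen libraries in 13 members and below in 21, against 33.9% and 45.8% of tested genes. Each split rests on both tumor libraries: without tumor replicate 2, 7 members rose and 5 fell, beside 24.1% and 24.3% of tested genes, and without tumor replicate 3, 7 rose and 7 fell, beside 25.5% and 28.3%. With upper-quartile scaling 7 members rose and 29 fell, beside 23.7% and 49.1% of tested genes. Equal listed totals gave 4 rises and 30 falls, beside 21.0% and 51.3%. Median ratios gave 16 rises and no fall, beside 37.3% and 21.0%. On the T cell markers all 47 rose, beside 93.7% of tested genes that rose and 1.06% that fell; that scaling moved the median of all tested genes to a log2 change of 2.03.

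**Figure D2:**
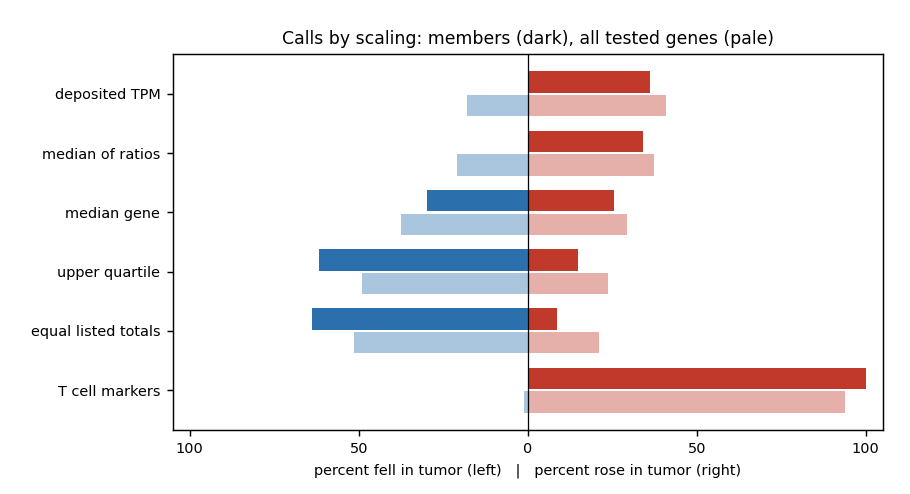
Percent of the 47 members (dark bars) and of the 12979 tested genes (pale bars) called in each direction under 6 scalings, with rises in tumor to the right and falls to the left. The members' rises range from 4 genes with equal listed totals to 47 with scaling on T cell markers.

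Ranks within a library do not depend on its scaling. The median member stood at the 69.1 and 69.9 percentile of tested genes in tumor replicates 2 and 3, and at the 77.7, 78.7 and 78.2 percentile in spleen replicates 1, 2 and 3. The percentile of 30 members was lower in both tumor libraries than in all spleen libraries, which is 63.8% of members, against 48.1% of all tested genes. It was higher in 9 members, or 19.1%, against 30.7% of tested genes. These shares are descriptions and were not tested. Counts by class below are to be read against the shares of tested genes given above for the same setting.

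**Figure D3:**
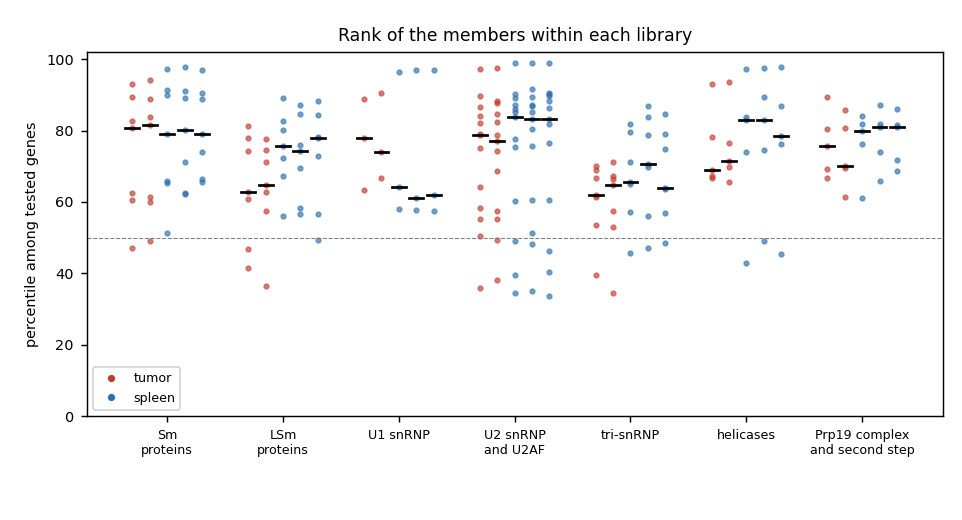
Percentile of each member among the 12979 tested genes, by complex; within a complex the columns from left to right are tumor replicates 2 and 3 and spleen replicates 1, 2 and 3. Each point is a gene, the black bar is the median of the complex in that library, and the dashed line is the median gene. The median of the 3 U1 proteins is Snrpc in each library, at 73.9 and 77.8 in tumor and 61.0 to 64.1 in spleen. Snrpa also lies higher in tumor, and Snrnp70 lies lower, at 88.8 and 90.5 in tumor and 96.5 to 97.1 in spleen.

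With equal listed totals 4 members rose, beside 21.0% of tested genes: Dhx38, Snrpc, Snrpb2 and Slu7. The share of tested genes called in every setting was not counted, so these 4 are not shown to stand out from other genes. The 4 were called higher in tumor in the deposited TPM, under each of the 5 other scalings and in each of the other 12 settings tried on the deposited TPM. Slu7 alone of these lost its call relative to the median gene when tumor replicate 2 was left out. They belong to 4 different classes and chromosomes: in GENCODE M21 (GRCm38) Dhx38 spans chr8:109548011-109565861 on the minus strand, Snrpc chr17:27838150-27851968, Snrpb2 chr2:143063039-143072853 and Slu7 chr11:43433744-43447981, all 3 on the plus strand. At the other end, Prpf19 was the member with the lowest log2 change in the deposited TPM and relative to the median gene. The proximal promoters of Snrpb2 and Prpf19, one of the 4 and the gene with the lowest change, are shown from RefSeq (GRCm38.p6), 150 bases ending just before the RefSeq start site on the plus strand, with matches to CCGGAAG (the core bound by ETS factors) or to an NRF1-like palindrome (GCGC, any 2 bases, GCGC), on either strand, in capitals. The Snrpb2 promoter lies at chr2:143062919-143063068 and that of Prpf19 at chr19:10895081-10895230. The Snrpb2 window runs past the GENCODE start of that gene, 143063039, and both its CCGGAAG matches lie beyond that start.

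Snrpb2: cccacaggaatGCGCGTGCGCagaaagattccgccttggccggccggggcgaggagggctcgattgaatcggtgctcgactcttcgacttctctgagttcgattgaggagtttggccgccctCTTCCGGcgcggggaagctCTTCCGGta

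Prpf19: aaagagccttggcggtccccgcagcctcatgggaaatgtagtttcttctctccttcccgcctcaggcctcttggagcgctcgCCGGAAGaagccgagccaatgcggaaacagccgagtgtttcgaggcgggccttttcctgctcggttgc

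The Snrpb2 window held 2 CCGGAAG matches and 1 palindrome, and the Prpf19 window 1 CCGGAAG match and none of the other, with no overlap between matches. Promoters of 36 of the 47 members were in the table, over windows from 250 bases before to 50 after each listed start. A gene with several starts counted as a match if any of its windows matched. Its highest GC content and CpG ratio were used. CCGGAAG occurred in 16 of these 36 (44.4%) and in 18.8% of the 10339 tested genes with a promoter. The palindrome occurred in 8 of 36 (22.2%), against 13.9%. The CCAAT box (ATTGG) was in 44.4% of members and 43.2% of tested genes, and TATAAA in 5.56% and 10.9%. The ratio of observed to expected CpG had a median of 0.956 in members and 0.761 in tested genes, at a GC content of 59.0% and 60.7%. The motifs were chosen after the promoters had been read, and a match is a description, not a binding site.

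The Sm proteins, which build the ring shared by U1, U2, U4 and U5, did not move as a unit. Of the 7 genes 2 rose and 5 were not called (median log2 change 0.42), and 4 rose without spleen replicate 2. Snrpd1, encoding SmD1, had 39.8 and 47.4 TPM in tumor replicates 2 and 3, and 16.7, 21.6 and 17.7 TPM in spleen replicates 1, 2 and 3 (log2 change 1.18 ± 0.21, SE; limma adjusted p = 3.5e-06). The libraries did not overlap, and Snrpd1 was the only Sm gene whose percentile was also higher in both tumor libraries than in every spleen library. Snrpb, encoding SmB, was the other rise, with 64.4 and 67.5 TPM in tumor and 29.1, 34.9 and 28.9 TPM in spleen (log2 change 1.07 ± 0.21, limma adjusted p = 1.7e-05). Its percentile overlapped, at 89.3 and 88.7 in tumor and 89.9, 89.2 and 88.7 in spleen.

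Snrpe, encoding SmE, was the most abundant Sm gene, at 96.7 and 124 TPM in tumor and 71.8, 103 and 74.0 TPM in spleen, which overlap (log2 change 0.42 ± 0.21, limma adjusted p = 0.087). Snrpd3, encoding SmD3, was the lowest, at 8.19 and 9.85 TPM in tumor and 6.59, 11.3 and 11.0 TPM in spleen (log2 change -0.06 ± 0.22, limma adjusted p = 0.83). The ring holds 1 copy of each protein, yet the highest Sm gene exceeded the lowest by 11.8- and 12.6-fold in tumor and by 6.75- to 10.9-fold in spleen. Snrpg (SmG), Snrpf (SmF) and Snrpd2 (SmD2) had log2 changes of 0.12, 0.17 and 0.42 without a call. Against the median gene Snrpd1 and Snrpb still rose (0.68 and 0.56), and Snrpd3 and Snrpg fell (-0.53 and -0.39). With equal listed totals none of the 7 rose. The percentile of 5 of the 7 was lower in both tumor libraries than in every spleen library, against 48.1% of tested genes.

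The LSm proteins of the U6 ring were close to level in the deposited TPM. Lsm3 alone of the 7 was called, and the median log2 change was 0.12. It stood at 30.1 and 33.1 TPM in tumor and 17.4, 17.1 and 16.9 TPM in spleen, with no overlap (log2 change 0.84 ± 0.21, limma adjusted p = 0.00044). Its sign turned with equal listed totals, at -0.05. Lsm8, the subunit that sets the nuclear ring apart from the cytoplasmic ring of mRNA decay, was the highest of the class. It had 36.6 and 28.4 TPM in tumor and 27.6, 27.0 and 28.0 TPM in spleen (log2 change 0.22 ± 0.21, limma adjusted p = 0.37), tumor replicate 2 standing above the other 4 libraries.

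Lsm4 was the lowest of the class, at 6.37 and 5.66 TPM in tumor and 7.73, 9.27 and 6.39 TPM in spleen. Both tumor values lay just under all spleen values, without a call (log2 change -0.32 ± 0.21, limma adjusted p = 0.19). Lsm2, Lsm5, Lsm6 and Lsm7 had log2 changes of 0.12, 0.05, 0.02 and 0.16, and their libraries overlapped. Scaled to the median gene, Lsm4, Lsm5, Lsm6 and Lsm7 fell, at -0.77, -0.45, -0.47 and -0.33, and Lsm3 rose at 0.34. In 5 of the 7 the percentile was lower in both tumor libraries than in every spleen library, as among the Sm genes.

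Among the U1 proteins, Snrpc and Snrpa rose while Snrnp70 was not called. Snrpc encodes U1-C, which steadies the pairing of U1 with the 5′ splice site. It had 30.1 and 27.4 TPM in tumor replicates 2 and 3, and 9.95, 10.9 and 9.67 TPM in spleen replicates 1, 2 and 3. Tumor levels averaged 2.83-fold those of spleen, with no overlap (log2 change 1.41 ± 0.21, limma adjusted p = 6.3e-08), and relative to the median gene the log2 change was 0.92 ± 0.14 (limma adjusted p = 0.00041).

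Snrpa, encoding U1-A, which binds a stem-loop of U1 RNA, was the lowest of the 3 by mean level. It had 15.9 and 19.99 TPM in tumor and 8.19, 9.65 and 8.35 TPM in spleen, with no overlap (log2 change 0.96 ± 0.21, limma adjusted p = 9.6e-05). Its call was lost with equal listed totals (0.09) and on the upper quartile. Snrnp70, encoding U1-70K, was the highest, at 61.7 and 80.2 TPM in tumor and 60.8, 86.4 and 74.9 TPM in spleen (log2 change -0.06 ± 0.21, limma adjusted p = 0.83). Relative to the median gene Snrnp70 fell, at -0.58 ± 0.13 (limma adjusted p = 0.0051). Thus Snrnp70 stood at 2.05- and 2.93-fold the level of Snrpc in tumor and at 6.11- to 7.95-fold in spleen. This ratio within a library, which no scaling alters, and the 2 others given below were chosen after their values were seen.

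The U2 particle recognises the branch point through the SF3a and SF3b subcomplexes, and U2AF marks the end of the intron for it. Of its 13 genes 6 rose and 7 were not called (median log2 change 0.45), and in 11 both tumor libraries lay above all spleen libraries, against 46.6% of tested genes. The other measures did not share that direction. The percentile was lower in both tumor libraries in 8 and higher in 4, against 48.1% and 30.7% of tested genes. The level over the median gene was lower in 5 and higher in 4, against 45.8% and 33.9% of tested genes. Snrpb2, encoding the U2-specific protein U2-B″, had 67.8 and 64.3 TPM in tumor and 22.3, 27.8 and 25.1 TPM in spleen. The groups did not overlap (log2 change 1.37 ± 0.21, limma adjusted p = 1.6e-07), and relative to the median gene the log2 change was 0.86 ± 0.12 (limma adjusted p = 0.00034). Its binding partner Snrpa1 (U2-A′) was at 16.5 and 21.9 TPM in tumor and 14.5, 18.1 and 16.0 TPM in spleen, which overlap (log2 change 0.22 ± 0.21, limma adjusted p = 0.36).

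Both U2AF subunits rose. U2af1, the small subunit that contacts the terminal AG of the intron, had 44.0 and 49.7 TPM in tumor and 15.8, 25.1 and 20.1 TPM in spleen (log2 change 1.19 ± 0.21, limma adjusted p = 5e-06). U2af2, the large subunit that binds the polypyrimidine tract, had 38.1 and 43.1 TPM in tumor and 23.3, 30.1 and 30.9 TPM in spleen (log2 change 0.52 ± 0.21, limma adjusted p = 0.03). Neither pair of groups overlapped. Relative to the median gene U2af1 rose at 0.68, and U2af2 was at 0.01 without a call.

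Sf3b1, the largest SF3b subunit and the one most often mutated in human blood cancers, was the most abundant of the 47. It had 232 and 257 TPM in tumor and 156, 231 and 174 TPM in spleen. Both tumor values lay above all spleen values, tumor replicate 2 only just, and no call was made (log2 change 0.40 ± 0.21, limma adjusted p = 0.091). Sf3b5, the lowest of the class, had 4.98 and 6.11 TPM in tumor and 3.798, 3.98 and 3.58 TPM in spleen (log2 change 0.45 ± 0.21, limma adjusted p = 0.059). Sf3b4 and Sf3b6, which lie near the branch point, rose by log2 changes of 1.00 and 0.83, as did Sf3a2 by 0.64. Sf3b3, a scaffold subunit, had the lowest log2 change of the class, with 31.8 and 35.1 TPM in tumor and 29.9, 41.6 and 33.1 TPM in spleen (-0.05 ± 0.21, limma adjusted p = 0.86).

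Sf3a1, Sf3a3 and Sf3b2 were not called, at log2 changes of 0.35, 0.34 and 0.21. Within SF3b the changes thus ran from -0.05 to 1.00 in a subcomplex whose subunits are present in equal number. Relative to the median gene Snrpb2, U2af1, Sf3b4 and Sf3b6 rose and Sf3b3 fell (-0.56 ± 0.12, limma adjusted p = 0.0041). With equal listed totals 1 of the 13, Snrpb2, rose and 7 fell.

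The tri-snRNP had the lowest median log2 change of the classes, 0.06. Of its 7 genes Prpf31 alone was called, with 18.1 and 19.9 TPM in tumor and 10.5, 15.1 and 10.3 TPM in spleen and no overlap (log2 change 0.64 ± 0.21, limma adjusted p = 0.0085). Prpf31 binds the U4 snRNP and ties it to U5. Leaving out spleen replicate 3 (limma adjusted p = 0.087) or tumor replicate 3 (limma adjusted p = 0.098) ended its call, whereas 3 of the 7 genes rose without spleen replicate 2. Prpf8, the scaffold at the catalytic centre and the highest of the class, had 20.8 and 24.4 TPM in tumor and 18.998, 30.3 and 23.2 TPM in spleen (log2 change -0.07 ± 0.21, limma adjusted p = 0.79). Prpf4 was the lowest, at 5.88 and 5.14 TPM in tumor and 5.53, 6.58 and 6.18 TPM in spleen (log2 change -0.12 ± 0.21, limma adjusted p = 0.61).

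Eftud2, the GTPase of U5, averaged 20.2 ± 0.52 TPM in tumor (SD, n = 2) and 20.2 ± 4.92 TPM in spleen (SD, n = 3), a log2 change of 0.02. Prpf3, Prpf6 and Snrnp40 were not called either, at 0.29, 0.06 and 0.35. After median-gene scaling none of the 7 rose, and Prpf4, Prpf6, Prpf8 and Eftud2 fell, at -0.57, -0.43, -0.57 and -0.47. The percentile of 6 of the 7 was lower in both tumor libraries than in every spleen library, against 48.1% of tested genes and 30 of the 47 members.

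Of the 5 helicases Dhx38 rose and the other 4 were not called (median log2 change 0.30). Without spleen replicate 2, 4 of the 5 rose, beside 45.0% of tested genes. With equal listed totals or upper-quartile scaling the 4 other than Dhx38 fell, beside 51.3% and 49.1% of tested genes. The percentile of these 4 was lower in both tumor libraries than in every spleen library, against 48.1% of tested genes. Dhx38, the counterpart of yeast Prp16 that remodels the complex between the splicing steps, had 18.5 and 19.04 TPM in tumor and 5.05, 7.08 and 5.57 TPM in spleen. That is 3.18-fold in the means, the largest log2 change among the 47 in the deposited TPM (1.53 ± 0.21, limma adjusted p = 1.3e-08), and 1.05 ± 0.14 relative to the median gene (limma adjusted p = 0.00023). Its percentile was 67.2 and 65.5 in tumor and 42.8, 49.0 and 45.5 in spleen.

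Dhx15, the counterpart of yeast Prp43 that takes spent complexes apart, was the most abundant helicase. It had 99.7 and 115 TPM in tumor and 72.9, 102.4 and 88.0 TPM in spleen, which overlap (log2 change 0.30 ± 0.21, limma adjusted p = 0.22). Dhx16, counterpart of yeast Prp2, had 19.7 and 24.5 TPM in tumor and 19.8, 24.6 and 17.3 TPM in spleen (log2 change 0.10 ± 0.21, limma adjusted p = 0.68), and fell relative to the median gene (-0.40). Snrnp200, which unwinds U4 from U6, and Ddx23, which frees the 5′ splice site from U1, were at log2 changes of 0.21 and 0.37 without a call. Within a library Dhx38 lay at 0.938- and 0.778-fold the level of Dhx16 in tumor and at 0.255- to 0.322-fold in spleen.

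Of the 5 Prp19 complex and second-step genes 4 rose in the deposited TPM, beside 40.9% of tested genes (median log2 change 0.86). Relative to the median gene 2 rose, beside 29.4% of tested genes. Crnkl1 (limma adjusted p = 0.052) and Plrg1 (limma adjusted p = 0.27) lost their calls there. With equal listed totals 1 rose, beside 21.0% of tested genes. Slu7, which helps choose the 3′ splice site, had 65.7 and 53.5 TPM in tumor and 19.02, 31.0 and 19.2 TPM in spleen. The groups did not overlap (log2 change 1.36 ± 0.22, limma adjusted p = 5.8e-07), and relative to the median gene the log2 change was 0.85 ± 0.19 (limma adjusted p = 0.0044). Crnkl1, the lowest of the class, had 19.9 and 22.7 TPM in tumor and 9.03, 12.9 and 12.2 TPM in spleen (log2 change 0.86 ± 0.21, limma adjusted p = 0.00046). Cdc5l and Plrg1, core subunits with Prpf19, rose by log2 changes of 0.86 and 0.69.

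Prpf19, the ubiquitin ligase after which the complex is named, had the only negative log2 change of the class. It had 18.2 and 16.1 TPM in tumor and 21.2, 23.6 and 24.6 TPM in spleen, with no overlap. The deposited TPM gave no call (log2 change -0.41 ± 0.21, limma adjusted p = 0.082), and the call was made without spleen replicate 2 (-0.40, limma adjusted p = 0.043). Relative to the median gene it fell by 0.91 on the log2 scale (limma adjusted p = 0.00059), and its percentile was 66.7 and 61.4 in tumor and 84.2, 81.9 and 86.0 in spleen. Cdc5l stood at 1.90- and 2.39-fold the level of Prpf19 in tumor libraries and at 0.803- to 0.947-fold in spleen libraries, with no overlap.

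**Figure D4:**
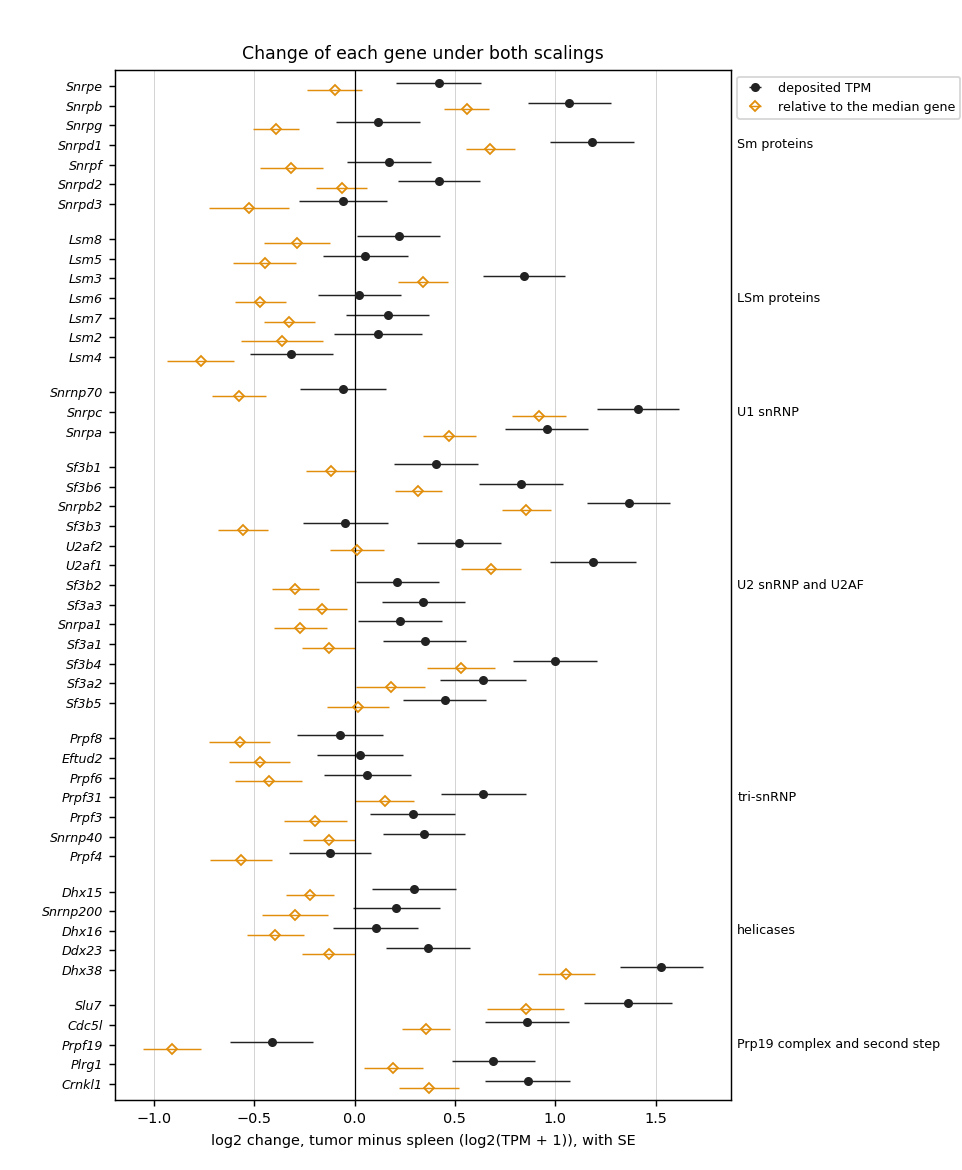
Log2 change of each member, tumor minus spleen, on the log2(TPM + 1) scale with its SE, in the deposited TPM (filled circles) and after scaling to an equal median gene (open diamonds). Dhx38, Snrpc, Snrpb2 and Slu7 lie to the right under both, and Prpf19 lies furthest left.

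Levels of the members across the tissues are given beside those of all tested genes. Pearson's r of log2(TPM + 1) over the 47 members was 0.877 to 0.897 between a tumor and a spleen library, and 0.652 to 0.688 over the 12979 tested genes. It was 0.983 between the tumor libraries and 0.980 to 0.986 between the spleen libraries. These are correlations across genes, given as a description. Across the members the log2 change had a Spearman's rho of -0.20 with transcript length and 0.13 with mean level, also as descriptions (n = 47 genes).

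Some values are less certain than their spread. Olfactory receptor genes, which T cells are not known to use, reached a 95th percentile of 7.59 and 10.7 TPM in tumor and 10.6 to 16.2 TPM in spleen. In tumor replicates 2 and 3, 3 and 5 members lay below it, and in spleen replicates 1, 2 and 3, 24, 9 and 17 did. Dhx38, Snrpa, Sf3b4 and Sf3a2 lay below it in all 3 spleen libraries, Snrpc in 2, and Snrpb2 and Slu7 in none. Of the 17 genes that rose, 8 lay above this level in every library. Reads of U2af1, Sf3b4, Lsm5 and Cdc5l may also be split with near-identical copies: 53.9%, 43.2%, 37.1% and 29.8% of their 75-base stretches occur in another annotated gene on the same strand. For Snrpf 66.6% occur on the opposite strand, in Ccdc38, and the sources used here do not say whether counting used strand.

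Other genes of the pathway, in 5 lists, are given for comparison. Their counts with all libraries in the deposited TPM are to be read against the 40.9% of tested genes that rose and the 18.1% that fell. Counts relative to the median gene are to be read against 29.4% that rose and 37.6% that fell. Without spleen replicate 2, 45.0% of tested genes rose, and without spleen replicate 3, 35.7%. Fewer tested genes also rose with either tumor library left out. Of 21 further U1, U2 and tri-snRNP proteins 11 rose and 1 fell, with a median log2 change of 0.52. Rises numbered 6 without tumor replicate 2, 4 without tumor replicate 3 and 7 without spleen replicate 3, and relative to the median gene 4 rose and 3 fell. Prpf38a, which joins the complex before activation, had the largest rise, at 48.0 and 50.03 TPM in tumor and 12.9, 17.6 and 14.7 TPM in spleen (log2 change 1.65 ± 0.21, limma adjusted p = 2.2e-09). The fall was that of Ddx46, the counterpart of yeast Prp5, at 14.1 and 19.99 TPM in tumor and 22.4, 39.0 and 23.8 TPM in spleen (log2 change -0.68 ± 0.22, limma adjusted p = 0.0085).

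Of 21 further proteins of the activated complex and second step 11 rose and 1 fell (median 0.54). Without tumor replicate 3, 6 rose, and relative to the median gene 4 rose and 3 fell (median 0.08). Isy1 had 106 and 100.2 TPM in tumor and 19.6, 22.3 and 21.9 TPM in spleen (log2 change 2.23 ± 0.21, limma adjusted p = 2.3e-13), above any of the 47 members in size of change. Aqr, a helicase that binds the intron, fell to 16.0 and 17.8 TPM in tumor, against 25.5, 33.7 and 26.4 TPM in spleen (log2 change -0.71 ± 0.21, limma adjusted p = 0.0033). Neither Ddx46 nor Aqr was called without tumor replicate 2. Of 8 exon junction complex genes 5 rose and none fell (median 0.84), and relative to the median gene 4 rose and 2 fell. Magohb, a near-copy of Magoh with which reads could be split, led with 51.0 and 75.1 TPM in tumor and 11.2, 10.2 and 10.8 TPM in spleen (log2 change 2.42 ± 0.21, limma adjusted p = 3.8e-14).

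Genes that assemble snRNPs gave 4 rises and 3 falls of 18 (median 0.14), with 7 rises without spleen replicate 2 and 2 without spleen replicate 3, and 1 rise and 7 falls relative to the median gene. Strap, a partner of the SMN complex, had 48.2 and 40.3 TPM in tumor and 16.7, 22.9 and 16.5 TPM in spleen (log2 change 1.21 ± 0.21, limma adjusted p = 3e-06). Gemin4, of the SMN complex, fell to 1.30 and 0.373 TPM in tumor, against 3.00, 4.03 and 2.70 TPM in spleen (log2 change -1.24 ± 0.23, limma adjusted p = 7.2e-06), all within the olfactory receptor level. Of 11 listed minor spliceosome genes 4 rose and none fell (median 0.42), and relative to the median gene 2 rose and 3 fell. The rises were led by Snrnp35, of the U11/U12 particle, at 6.71 and 7.53 TPM in tumor and 1.62, 1.91 and 1.53 TPM in spleen (log2 change 1.60 ± 0.21, limma adjusted p = 5.3e-09), also within the olfactory receptor level in every library.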

How the data were processed

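Per the labels' protocols, total RNA was made into stranded, ribosomal RNA-depleted libraries and sequenced as paired reads of 75 bp. The deposited files give 1 TPM value per gene symbol and library. The unit is inferred: the authors' values are not whole and sum to below 1000000 per library. Of tools and builds, kallisto, DESeq2 and mm10 appear in the submitters' processing notes, without versions or roles. TPM keep no read depth, so no counting interval is given.

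The fit was made with limma 3.58.1 (R 4.3.3) on log2(TPM + 1), with a term for tissue alone, for the 12979 genes averaging 1 TPM or more. Variances followed a trend with the mean. P-values were two-sided, adjusted by Benjamini-Hochberg over these genes and called below 0.05. The SE borrows from genes of similar level, since each gene has 3 residual degrees of freedom, beside 44.1 borrowed (5.60 after median-gene scaling). In the deposited TPM it thus says little of a gene's own spread. With the replicate block, scaling by median ratios or the filter of at least 5 TPM, the variance came wholly from the pool. The same held without spleen replicate 3, tumor replicate 2 or tumor replicate 3. Fold changes on this scale understate those of low genes. The median-gene version divides each library by the median TPM of tested genes. On simulated libraries the script was tested for recovery of known changes. The members, lists and motifs were chosen with earlier results of these data known. Named per class were the highest and lowest by mean TPM and the largest rise and fall, and per further list the largest called rise and fall; other members named with values were added after these were seen. Lengths and shared 75-base stretches come from the longest coding transcript of each gene in GENCODE M21 (GRCm38, the build also called mm10). Same-numbered libraries are not stated to share a mouse and were not paired. Alternatives covered scaling, pseudocount, filter, threshold, trend, the replicate block and each library left out.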

Additional observations from a re-analysis of the deposited data

How the results depend on the processing

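Scaling decided most directions. With an equal median gene 14 members fell, against none in the deposited TPM. Equal listed totals gave 4 rises and 30 falls, upper-quartile scaling 7 and 29, and the T cell markers 47 rises. Leaving out 1 library at a time gave 14 to 27 rises and 0 to 1 falls in the deposited TPM, and 7 to 12 rises and 5 to 16 falls relative to the median gene. The replicate block gave 14 rises and no fall, beside 37.6% and 15.5% of tested genes. Relative to the median gene the block gave 10 rises and 17 falls. Shares of tested genes are not given for the block, or for a spleen library left out, relative to the median gene. With all libraries in, 29.4% of tested genes rose and 37.6% fell on that scaling. These member counts are thus not shown to differ from those of other genes. Spleen replicate 1 has no same-numbered tumor library, so the block takes it out of the comparison. Its log2 changes equal those without spleen replicate 1, and the 2 settings are not separate evidence. The block also left 6 rises among the further U1, U2 and tri-snRNP proteins, 2 among the assembly genes and none in the tri-snRNP. The same-numbered libraries' deviations from their group means correlated at 0.202 (replicate 2) and 0.066 (replicate 3), and the labels do not say that numbers pair libraries. A lone library left in a group was assumed to vary like the others. The cause of a change was not tested. The TPM hold no read depth, so how depth limits low members is not known.

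The following log2 changes reversed their sign. With an equal median gene these were Snrpd2 at -0.065, Snrpe -0.10, Snrpf -0.32, Snrpg -0.39, Lsm2 -0.36, Lsm5 -0.45, Lsm6 -0.47, Lsm7 -0.33, Lsm8 -0.29, Snrpa1 -0.27, Sf3a1 -0.13, Sf3a3 -0.16, Sf3b1 -0.12, Sf3b2 -0.30, Prpf3 -0.20, Prpf6 -0.43, Eftud2 -0.47, Snrnp40 -0.13, Snrnp200 -0.30, Ddx23 -0.13, Dhx15 -0.22 and Dhx16 -0.40. With equal listed totals they were Snrpd2 at -0.45, Snrpe -0.51, Snrpf -0.70, Snrpg -0.79, Lsm2 -0.73, Lsm3 -0.053, Lsm5 -0.84, Lsm6 -0.86, Lsm7 -0.71, Lsm8 -0.69, Snrpa1 -0.66, Sf3a1 -0.51, Sf3a2 -0.18, Sf3a3 -0.56, Sf3b1 -0.53, Sf3b2 -0.69, Sf3b5 -0.32, Sf3b6 -0.083, U2af2 -0.39, Prpf3 -0.58, Prpf6 -0.81, Prpf31 -0.23, Eftud2 -0.86, Snrnp40 -0.50, Snrnp200 -0.70, Ddx23 -0.52, Dhx15 -0.63, Dhx16 -0.79, Cdc5l -0.041, Plrg1 -0.20 and Crnkl1 -0.014.

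On the upper quartile the reversed values were Snrpd2 at -0.34, Snrpe -0.39, Snrpf -0.59, Snrpg -0.68, Lsm2 -0.63, Lsm5 -0.73, Lsm6 -0.75, Lsm7 -0.60, Lsm8 -0.57, Snrpa1 -0.55, Sf3a1 -0.40, Sf3a2 -0.081, Sf3a3 -0.45, Sf3b1 -0.41, Sf3b2 -0.58, Sf3b5 -0.22, U2af2 -0.27, Prpf3 -0.47, Prpf6 -0.71, Prpf31 -0.13, Eftud2 -0.75, Snrnp40 -0.40, Snrnp200 -0.58, Ddx23 -0.41, Dhx15 -0.52, Dhx16 -0.68 and Plrg1 -0.088. On the T cell markers Snrpd3 was at 1.82, Lsm4 1.504, Snrnp70 1.95, Sf3b3 1.94, Prpf4 1.67, Prpf8 1.89, Prpf19 1.54, Ddx46 1.28 and Aqr 1.24. By median ratios Lsm5 was at -0.031, Lsm6 -0.060, Prpf6 -0.021 and Eftud2 -0.060. With the replicate block, as without spleen replicate 1, Lsm5 was at -0.088, Lsm6 -0.062, Prpf6 -0.093 and Eftud2 -0.078. With 1 library left out in turn Snrpd3 ranged over -0.28 to 0.07, Lsm2 -0.23 to 0.47, Lsm5 -0.088 to 0.23, Lsm6 -0.10 to 0.14, Snrnp70 -0.25 to 0.13, Sf3b3 -0.15 to 0.084, Prpf6 -0.10 to 0.25, Prpf8 -0.23 to 0.10, Eftud2 -0.078 to 0.21 and Dhx16 -0.045 to 0.25.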
